A study of Homo sapiens with 6 samples.

Results

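The annexins are a family of proteins that bind phospholipid membranes in the presence of calcium, and 8 of their genes (ANXA1, ANXA2, ANXA3, ANXA4, ANXA5, ANXA6, ANXA7 and ANXA11) are described here in MV4;11 cells, an established human leukemia line with a rearranged MLL gene. They were read by 39 of the 49293 probe sets tested, those annotated by the platform to 1 of these symbols alone, and they make up 8 of 18239 genes. The family was chosen on measured values, because ANXA1 was among the strongest rises in the comparison below and because its probe sets disagree. The values of ANXA1 are therefore given as a description, with no test.

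The cells had been treated with MI-389, an inhibitor of the binding of menin to MLL, at 4 µM (3 arrays), or with the solvent DMSO (3 arrays). Both groups held 0.25% DMSO for 6 days, and medium and additions were renewed on day 3. All arrays came from the same line, and the labels name the samples biological replicates but do not describe separate cultures. The p-values therefore rest on the spread between these arrays, part of which may be technical. The question is how transcript levels respond to inhibition of the menin-MLL interaction.

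Each annexin has a conserved core that holds calcium and lipid and an N-terminal tail that differs between members and binds partner proteins. ANXA1 is abundant in monocytes and neutrophils, is induced by glucocorticoids, and restrains inflammation through formyl peptide receptors. ANXA2 joins S100A10 on the cell surface, and ANXA5 binds the phosphatidylserine that dying cells expose, which made it a reagent for apoptosis.

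The promoters of the 4 members with changes over 1 on the log2 scale are shown so that the windows upstream of these genes can be compared. The sequences are RefSeq's, build GRCh38.p14, from 250 bases before to 50 bases after the annotated start, 5′ to 3′ on the gene's strand. They lie at chr9:73151615-73151914 (+ strand) for ANXA1, chr15:60397937-60398236 (- strand) for ANXA2, chr4:121696931-121697230 (- strand) for ANXA5 and chr5:151157730-151158029 (- strand) for ANXA6, which has a further promoter in the table that is not shown. Capitals mark matches, on either strand, to the 7 motifs whose letters are given with their positions below.
ANXA1: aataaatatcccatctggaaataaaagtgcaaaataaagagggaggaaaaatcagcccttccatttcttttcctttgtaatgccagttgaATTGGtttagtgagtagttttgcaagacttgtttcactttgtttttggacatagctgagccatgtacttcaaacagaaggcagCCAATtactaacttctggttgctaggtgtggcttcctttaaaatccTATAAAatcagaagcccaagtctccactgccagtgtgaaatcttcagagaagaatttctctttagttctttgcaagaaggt
ANXA2: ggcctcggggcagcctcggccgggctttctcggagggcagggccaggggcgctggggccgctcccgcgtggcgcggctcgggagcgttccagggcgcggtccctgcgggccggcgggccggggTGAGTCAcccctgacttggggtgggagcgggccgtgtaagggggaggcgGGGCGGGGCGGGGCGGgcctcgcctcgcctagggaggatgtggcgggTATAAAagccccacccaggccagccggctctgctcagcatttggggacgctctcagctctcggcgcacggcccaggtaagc
ANXA5: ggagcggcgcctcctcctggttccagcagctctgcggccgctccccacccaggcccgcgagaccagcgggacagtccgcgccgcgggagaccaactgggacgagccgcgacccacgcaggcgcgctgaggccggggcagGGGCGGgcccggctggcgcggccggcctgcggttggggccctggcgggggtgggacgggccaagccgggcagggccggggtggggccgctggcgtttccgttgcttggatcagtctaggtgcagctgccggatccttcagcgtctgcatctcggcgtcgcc
ANXA6: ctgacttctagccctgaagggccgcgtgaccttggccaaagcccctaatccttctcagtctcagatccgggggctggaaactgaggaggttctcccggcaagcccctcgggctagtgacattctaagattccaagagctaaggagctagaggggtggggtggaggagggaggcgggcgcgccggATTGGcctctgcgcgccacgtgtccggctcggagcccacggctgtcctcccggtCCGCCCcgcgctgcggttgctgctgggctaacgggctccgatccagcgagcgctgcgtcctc

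The ANXA1 window had a GC content of 37.7% and 0 CpG dinucleotides, against medians of 58.7% and 14 over 34796 promoters of the same length, and 7.62% of those had a lower GC content. The windows of ANXA2, ANXA5 and ANXA6 had GC contents of 76.0%, 76.3% and 66.3%, with 32, 36 and 25 CpG dinucleotides. The TATA box letters TATAAA began at -31 in both ANXA1 and ANXA2, and 11.6% of all promoters held it. The ANXA1 window held the CCAAT box at -160 and -77 (34.6% of all promoters), and that of ANXA6 held it at -66. GC boxes, GGGCGG (44.9% of all promoters) stood at -78, -73 and -68 in ANXA2, overlapping by a base, at -111 in ANXA5 and at -12 in ANXA6. The AP-1 letters TGACTCA (4.96% of all promoters) occurred in ANXA2 at -127, with no overlap with another match. The letters AGAACA, 1 arm of a glucocorticoid receptor site (14.8% of all promoters), were not in these 4 windows. Those of the myeloid factors PU.1, GAGGAAGT (2.60%), and C/EBP, TTGCGNAA (0.894%), were not there either. All motifs were searched on both strands. Matches are letters in a window and say nothing of binding.

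Expression values are on the log2 scale as deposited, 1 per probe set and array. They have no detection calls, and 23 nonspecific control probe sets served as a guide to background. Without the control set of highest GC content their highest value was 5.49, called the nonspecific level below. With that set it was 7.87. Which values count as above background, and the folds given as bounds, depend on leaving it out. Over all probe sets, which are not independent replicates, Pearson's r was 0.979 to 0.981 between an MI-389 and a DMSO array and 0.997 to 0.998 within a group. Of 6 measured markers of myeloid leukemia cells, 4 lay above the nonspecific level with MI-389 and 5 with DMSO. Markers of other lineages above it in either group were PAX5 of 4 B cell genes, KRT18 of 5 epithelial genes and PECAM1 of 6 fibroblast and endothelial genes, and none of 5 T cell, 3 erythroid and 5 platelet genes. The hybridisation spike-ins averaged 9.30 on the MI-389 arrays and 9.05 on the DMSO arrays. Centring the arrays on them shifts the change of every gene by -0.25, so that 11.2% of called genes were higher with MI-389 against 53.9% in the values as deposited. Probe sets for 18S ribosomal RNA averaged 8.98 with MI-389 and 8.28 with DMSO, those for 28S averaged 9.31 with MI-389 and 8.25 with DMSO, and the 3′ minus 5′ difference of beta-actin was 1.64 with MI-389 and 1.30 with DMSO. The part of these control differences in the results below was not tested.

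ANXA1 had log2 values of 10.18, 10.17 and 10.27 with MI-389 and of 5.58, 5.80 and 5.12 with DMSO, on the brightest of its 5 probe sets (11744954_x_at). The groups were far apart, and DMSO replicate 3 was the lowest array. The difference was 4.70 (SE 0.14, 95% interval 4.39 to 5.01), and 0.0384% of all genes had a larger rise. The family was chosen for this rise, so the interval and the share are descriptions that do not allow for that choice. In these bulk samples, more cells with the transcript and more transcript per cell cannot be told apart.

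Another 3 ANXA1 probe sets gave much the same picture. On 11717514_a_at the values were 9.93, 9.90 and 9.88 with MI-389 and 4.99, 5.01 and 4.49 with DMSO. On 11744953_a_at they were 9.85, 9.94 and 10.02 with MI-389 and 5.43, 5.31 and 4.51 with DMSO, and 11744955_a_at had 9.86, 9.88 and 9.92 with MI-389, against 5.02, 5.13 and 4.50 with DMSO. On each of these 4 probe sets DMSO replicate 3 was the lowest of the 6 arrays, and the MI-389 arrays lay close to one another.

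The DMSO values of these 3 probe sets all lay under the nonspecific level, where the deposited values are compressed, so their folds are bounds. Set against that level, ANXA1 was at least 21.4-fold, 21.8-fold and 21.2-fold higher with MI-389. The brightest probe set, with 2 of 3 DMSO arrays above the level, gave a 26.1-fold difference. Without DMSO replicate 3 its log2 change was 4.52, and over all single arrays left out it ranged from 4.52 to 4.85.

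The fifth ANXA1 probe set, 11759797_at, did not share the rise. It had 3.35, 3.43 and 3.42 with MI-389 and 3.44, 3.35 and 3.39 with DMSO, so the groups overlapped, with a difference of 0.0042 (SE 0.06). All 6 arrays lay well under the nonspecific level. This is the only ANXA1 probe set whose name has no suffix (_a_at, _s_at or _x_at), and a rule that prefers such probe sets reads ANXA1 through it. That rule ranked all suffixes alike. Among the ANXA1 probe sets that rose, only 11744954_x_at has a suffix other than _a_at. Averaging the 5 gave a change of 3.93. The probe sequences were not analysed here, so which part of the transcript each probe set reads, and whether the other 4 share probes, is not given.

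**Figure D1:**
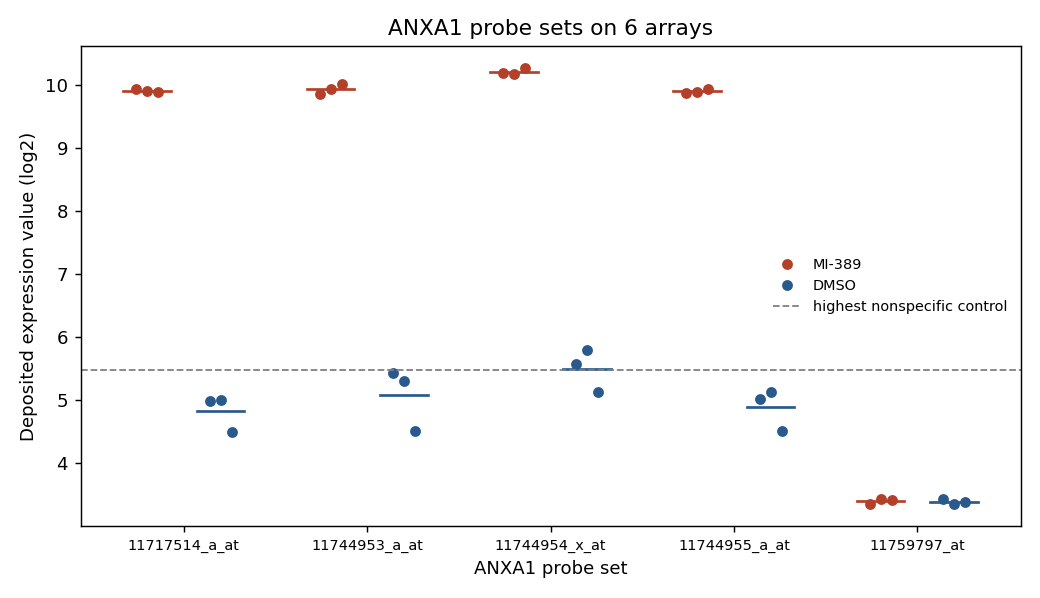
Deposited log2 value of each of the 5 ANXA1 probe sets on the 3 MI-389 and 3 DMSO arrays, with points for arrays, bars for group means and a dashed line at the nonspecific level of 5.49. The MI-389 arrays lie between 9.85 and 10.27 on 4 probe sets, and all 6 arrays lie between 3.35 and 3.44 on 11759797_at.

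The genes with the profile most like that of ANXA1 over the 6 arrays, by the distance between values set relative to each gene's DMSO mean, were CACNA2D3 (distance 0.92), CD36 (1.02) and CES1 (1.05). CACNA2D3, a calcium channel subunit, averaged 10.09 ± 0.07 with MI-389 and 5.10 ± 0.23 with DMSO, a change of 4.99. CD36, a scavenger receptor, changed by 4.20, and CES1, a carboxylesterase, by 4.83. The DMSO arrays of all 3 lay under the nonspecific level, so these differences and distances rest on compressed values. Against that level the 3 were at least 24.4-fold, 10.3-fold and 13.3-fold higher with MI-389. All 3 were chosen for this likeness, and the measure includes the size of the change.

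Of the 7 members other than ANXA1, 6 were higher and 1 was lower with MI-389 at an adjusted p under 0.05 (limma with Benjamini-Hochberg adjustment over all genes). Centring on the spike-ins left 3 higher (ANXA2, ANXA5 and ANXA6) and 1 lower (ANXA3). Of all genes 18.4% were called higher and 15.7% lower, and under that centring 7.66% were higher and 60.6% lower. For each of the 8 the MI-389 and DMSO arrays were separate, as in 45.3% of all genes. The median change of the 8 was 0.89, beside 0.018 over all genes. At the level of probe sets 29 of 39 were higher and 2 lower (14.0% of all probe sets each way). With the spike-in centring these were 17 and 7 (5.89% and 61.2% of all). The 29 include 4 of ANXA1 past the same threshold, counted as a description. In 31 of the 39 the groups did not overlap (40.4% of all). Because the family was chosen in this same comparison, nothing is read from these shares. Probe sets of 1 gene share a target and are not replicates.

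**Figure D2:**
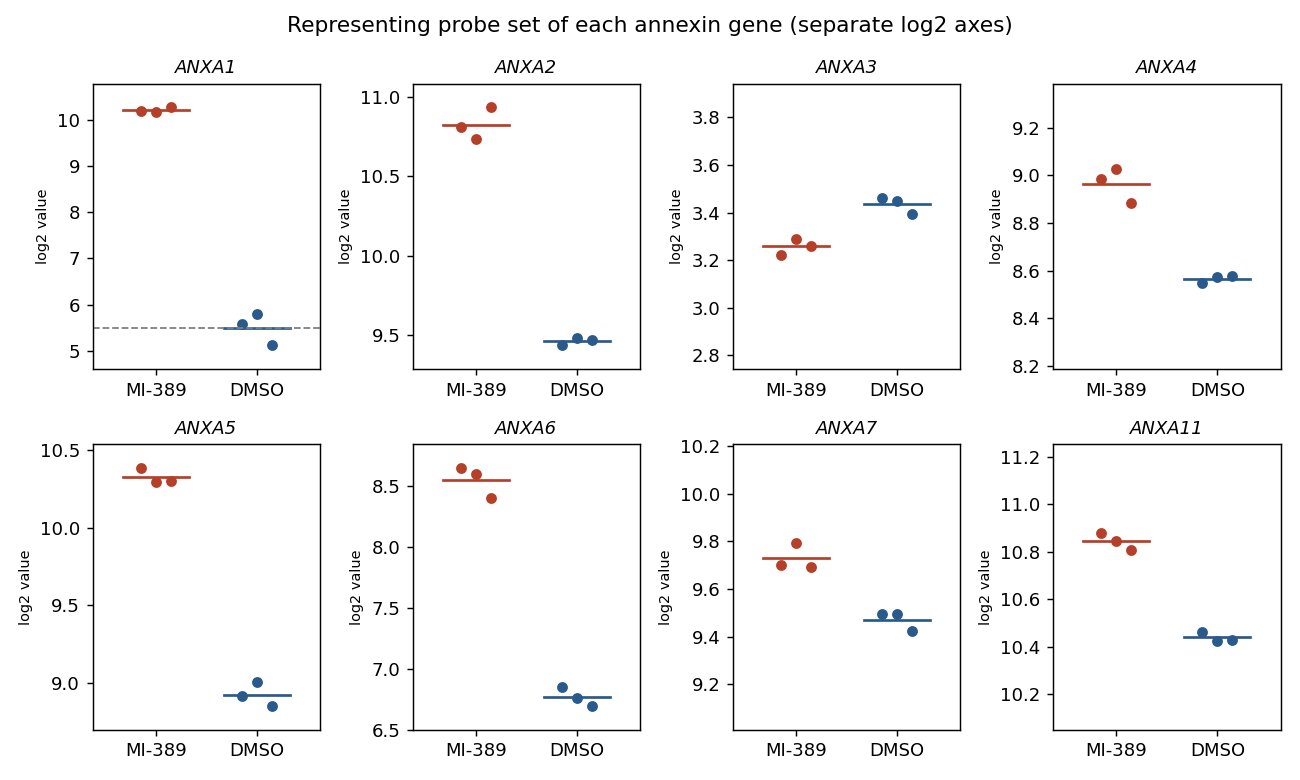
Deposited log2 value of the probe set that represents each of the 8 annexin genes, on the 3 MI-389 (left) and 3 DMSO (right) arrays, with bars for means, a separate axis for each gene and, where it falls in range, a dashed line at the nonspecific level of 5.49. The groups do not overlap for any gene, and ANXA3, at 3.22 to 3.46, is the gene that is lower with MI-389.

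ANXA6, the large annexin with a duplicated core that acts in endocytic traffic, had the next rise after ANXA1. Its values were 8.65, 8.60 and 8.40 with MI-389 and 6.85, 6.76 and 6.69 with DMSO. Every MI-389 array lay more than 1.5 above every DMSO array. The change was 1.78 (SE 0.08, 3.43-fold, limma adjusted p = 6.4e-08), read by a single probe set, so no other probe set bears on it. With the spike-in centring it was 1.53.

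ANXA5 was higher on all 6 of its probe sets. On the brightest it had 10.38, 10.29 and 10.30 with MI-389 and 8.92, 9.01 and 8.85 with DMSO, with both groups tight and far apart. The change was 1.40 (SE 0.06, 2.64-fold, limma adjusted p = 6.8e-08), and 1.15 with the spike-in centring. Another 3 probe sets gave 1.35 to 1.38. On 11750040_a_at all DMSO arrays lay under the nonspecific level, and against that level it was at least 1.61-fold higher. The dim one, 11759424_at, averaged 5.20 ± 0.08 with MI-389 and 4.50 ± 0.10 with DMSO and gave 0.71.

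ANXA2, the partner of S100A10 and a surface receptor for plasminogen and its activator, had 10.81, 10.73 and 10.93 with MI-389 and 9.43, 9.48 and 9.47 with DMSO. The groups were separate, and the DMSO arrays were nearly equal. The change was 1.37 (SE 0.06, 2.58-fold, limma adjusted p = 1.1e-07), and 1.11 with the spike-in centring. Among its 6 probe sets, 4 gave 1.21 to 1.42. The pair 11738551_a_at and 11738552_x_at gave only 0.10 (not called, adjusted p = 0.556) and 0.34, with means of 5.27 and 6.12 with MI-389 and 5.17 and 5.78 with DMSO.

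ANXA2 has near-identical processed copies in the genome, and their probe sets were looked at after the values were seen. The probe set annotated to ANXA2P2 had 10.20, 10.05 and 10.26 with MI-389 and 8.94, 9.00 and 8.95 with DMSO, 2.30-fold higher. ANXA2P3 changed by 0.40 and ANXA2P1 by 0.02, both with all arrays under the nonspecific level. Transcripts of ANXA2 and ANXA2P2 may share probes, so their levels are uncertain as separate genes.

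ANXA11, which binds RNA granules and the calcium-binding proteins S100A6 and PDCD6, had 10.88, 10.84 and 10.81 with MI-389 and 10.46, 10.43 and 10.43 with DMSO. The step was small and the arrays of a group nearly equal. The change was 0.40 (SE 0.05, 1.32-fold, limma adjusted p = 1.8e-04). Its 8 probe sets were all called higher, over a narrow range of 0.30 to 0.48. With the spike-in centring the change was 0.15 and not called (adjusted p = 0.0866), and 1 of the 8 probe sets was called higher.

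ANXA4, a membrane-ordering annexin, had 8.98, 9.03 and 8.88 with MI-389 and 8.55, 8.57 and 8.58 with DMSO on the brightest of 9 probe sets. The groups were apart, by 0.40 in the mean (SE 0.06, 1.32-fold, limma adjusted p = 3.7e-04). The other probe sets were mixed. In all, 4 were called higher, with changes of 0.22 to 0.47, and 5 were not called. Of those 5, 3 were bright, with changes of 0.16 (11733148_a_at), 0.05 (11748702_x_at) and -0.04 (11750196_a_at). Averaged over its probe sets the gene changed by 0.19, and with the spike-in centring by 0.15, not called (adjusted p = 0.102). With that centring 1 of the 9 probe sets was called higher and 3 were called lower.

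ANXA7, or synexin, an annexin of exocytosis, had 9.70, 9.80 and 9.69 with MI-389 and 9.50, 9.49 and 9.42 with DMSO. The lowest MI-389 array lay above the highest DMSO array, and the change was 0.26 (SE 0.06, limma adjusted p = 0.0052). Its other probe set, 11723643_a_at, had 8.03, 8.28 and 8.17 with MI-389 and 8.22, 8.22 and 8.01 with DMSO, so the groups overlapped (change 0.01, 95% interval -0.17 to 0.20). The mean of both was 0.13 and not called (adjusted p = 0.116), and with the spike-in centring the gene stood at 0.0059, not called (adjusted p = 0.950). With that centring 1 of its 2 probe sets was called lower.

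ANXA3, known from neutrophil granules, was the member called lower. It had 3.22, 3.29 and 3.26 with MI-389 and 3.46, 3.45 and 3.39 with DMSO. All arrays lay far under the nonspecific level, so no fold is given. The change was -0.18 (SE 0.05, limma adjusted p = 0.0271), or -0.43 with the spike-in centring, and the second probe set gave -0.26. The gene's call was lost without DMSO replicate 1 (-0.16, adjusted p = 0.0905), DMSO replicate 2 (-0.17, adjusted p = 0.0920) or MI-389 replicate 1 (-0.16, adjusted p = 0.0839).

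Whether probe sets of 1 gene differ in their change was tested on the difference between each further probe set and the brightest, over 27014 such pairs of all genes. Of these pairs 21.3% differed at an adjusted p under 0.05 (limma). Among the annexins other than ANXA1, 7 of 27 pairs differed. In 3 of the 7 the further probe set lay above the nonspecific level on all 6 arrays. These 3 were 11738552_x_at of ANXA2, with a change smaller by 1.03 (-1.03, SE 0.08, adjusted p = 5.5e-06), and 11750196_a_at (-0.44, adjusted p = 0.0026) and 11748702_x_at (-0.35, adjusted p = 0.0110) of ANXA4.

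In ANXA11 0 of 7 pairs differed, and also 0 at an unadjusted p under 0.05. Its differences ran from -0.10 to 0.08. The single pair of ANXA7 was not called (-0.25, 95% interval -0.44 to -0.06, adjusted p = 0.0661), although its unadjusted p was under 0.05. The pair of ANXA3 was not called either. For ANXA1, as a description, the 3 bright pairs differed by 0.15 to 0.37 and 11759797_at by -4.70. The 3 annexin probe sets with no suffix (in ANXA1, ANXA4 and ANXA5) all lay under the nonspecific level on all 6 arrays, as did 7 of the 39 in all.

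**Figure D3:**
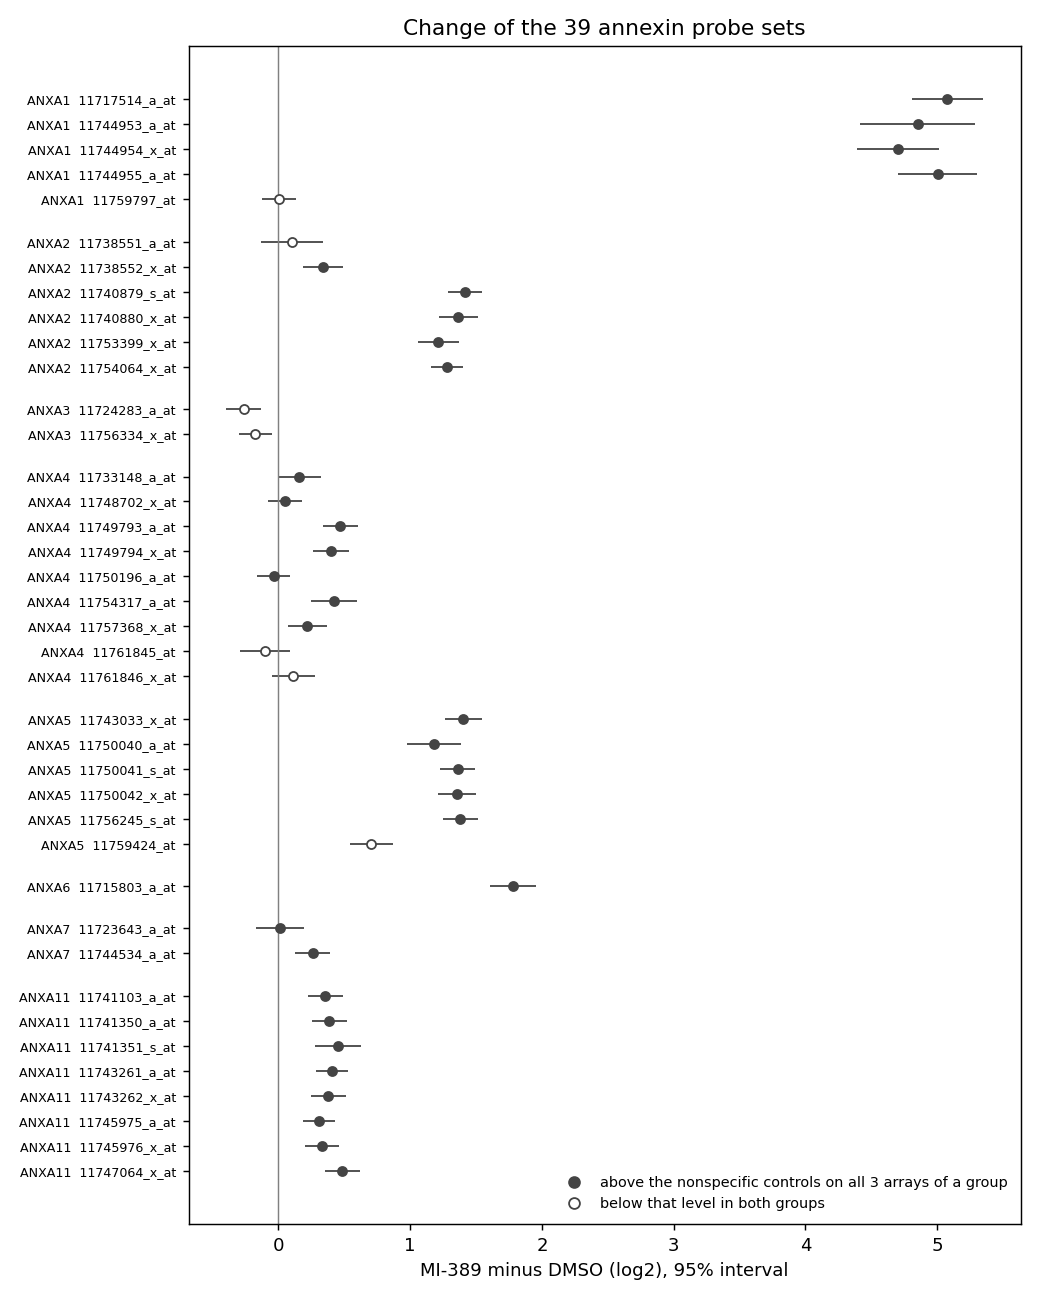
Change of each of the 39 annexin probe sets (MI-389 minus DMSO, log2), with 95% intervals from limma; open points are probe sets under the nonspecific level of 5.49 on all 6 arrays. The ANXA1 probe sets split between 4.70 to 5.08 and 0.0042, while the 8 of ANXA11 lie between 0.30 and 0.48.

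Genes that work with the annexins were taken from 7 lists, chosen with earlier results of these data known, of which 47 of 52 genes were measured. Together 14 were higher and 6 lower (medians of the 47 and of all genes 0.020 and 0.018), but 13 higher and 27 lower with the spike-in centring. These counts, and those of the single lists below, stand beside 18.4% of all genes higher and 15.7% lower, and 7.66% and 60.6% with the centring, and nothing particular to the lists is read from them. At an unadjusted p under 0.05 (limma), 4126 of the 18239 genes were higher and 3445 were lower. Among the other annexins, ANXA8L1, ANXA9 and ANXA10 changed by -0.02, -0.04 and 0.06, with 0 of 3 called by limma and also 0 at an unadjusted p under 0.05. With the spike-in centring all 3 were called lower (-0.27, -0.29 and -0.19). ANXA9 and ANXA10 lay under the nonspecific level, and ANXA8L1 averaged 6.17 ± 0.05 with MI-389 and 6.19 ± 0.05 with DMSO. Probe sets shared by ANXA8 and ANXA8L1 represent no gene here, and all lay under the nonspecific level. The brightest of them with MI-389 averaged 4.14 with MI-389 and 3.74 with DMSO. It was called higher (0.40, limma adjusted p = 4.4e-04), with no overlap. The others were not called, with changes of -0.24 (no overlap), 0.12 and 0.14 (both overlapping).

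Of the 4 S100 partners 3 rose and 0 fell, also at an unadjusted p under 0.05, and with S100A11 called lower (-0.22) under the spike-in centring. S100A10, which forms the ANXA2 complex, had 9.28, 9.26 and 9.38 with MI-389 and 7.69, 7.43 and 7.51 with DMSO. That is a change of 1.76 (SE 0.07, limma adjusted p = 5.8e-08), with groups wide apart on both of its probe sets. S100A6, a partner of ANXA11, changed by 1.65 (SE 0.07) and S100A4, a partner of ANXA2, by 1.18 (SE 0.08). S100A11, the partner of ANXA1, had 10.80, 10.64 and 10.61 with MI-389 and 10.67, 10.62 and 10.67 with DMSO, so the groups overlapped (change 0.03, 95% interval -0.11 to 0.17, adjusted p = 0.787).

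The receptors of ANXA1 were dim. FPR1 averaged 4.42 ± 0.14 with MI-389 and 4.24 ± 0.12 with DMSO, FPR2 averaged 4.19 ± 0.07 with MI-389 and 4.21 ± 0.04 with DMSO, and FPR3 averaged 3.46 ± 0.09 with MI-389 and 3.49 ± 0.15 with DMSO, all under the nonspecific level. Limma called 0 of the 3, and 0 at an unadjusted p under 0.05, and with the spike-in centring FPR2 (-0.28) and FPR3 (-0.28) were called lower. Further FPR2 probe sets were called higher, 11734035_a_at with 4.40 ± 0.14 with MI-389 and 3.65 ± 0.17 with DMSO (0.75, adjusted p = 1.9e-04) and 11739140_a_at by 0.20 (adjusted p = 0.0481), also under that level.

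Of 8 other binding partners, 3 rose and 1 fell (median 0.14), and 3 rose and 3 fell with the spike-in centring. PRKCA, a calcium- and lipid-activated protein kinase, had 8.62, 8.57 and 8.62 with MI-389 and 6.71, 6.77 and 6.72 with DMSO, a change of 1.87 (SE 0.05, limma adjusted p = 3.6e-09) with no overlap. Of its 3 probe sets, 1 was called. AHNAK, a giant scaffold that binds S100A10 with ANXA2, rose by 0.66 and PLA2G4A, the cytosolic phospholipase whose activity ANXA1 can inhibit, by 0.51. TRPM7, a channel kinase that phosphorylates ANXA1, fell by 0.18, and lost its call under a further quantile normalisation. It was called on 1 of its 2 probe sets.

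Of 6 genes of the glucocorticoid response, which is known to induce ANXA1, 1 rose and 2 fell (median -0.09), and 5 fell with the spike-in centring. NR3C1, the glucocorticoid receptor, had 9.03, 9.23 and 9.00 with MI-389 and 9.75, 9.82 and 9.77 with DMSO, a change of -0.69 (SE 0.07, limma adjusted p = 3.2e-05), with all 10 of its probe sets called lower. TSC22D3 (GILZ), a classical glucocorticoid target, had 7.35, 7.79 and 7.59 with MI-389 and 9.27, 9.23 and 9.03 with DMSO, a change of -1.60 (SE 0.11). FKBP5, another target, rose by 0.74 (SE 0.06), with 2 of 6 probe sets called. PER1, DUSP1 and ZFP36 changed by -0.10, -0.08 and 0.02 and were not called, and all 3 were called lower under the centring. PER1 and DUSP1 lay under the nonspecific level on all 6 arrays.

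Of 12 genes of phosphatidylserine exposure and recognition, 3 rose and 3 fell (median 0.02), and 7 fell with the spike-in centring. GAS6, the ligand that bridges phosphatidylserine to the TAM receptors, had 9.16, 9.05 and 9.03 with MI-389 and 6.90, 6.88 and 6.94 with DMSO, a change of 2.18 (SE 0.06, limma adjusted p = 2.9e-09), far beyond the spread of either group. PROS1, the other such ligand, changed by 1.44, at least 1.68-fold when its DMSO arrays are set at the nonspecific level, with 2 of 3 probe sets called. PLSCR3 changed by 0.50, with 1 of 2 probe sets called. The receptors AXL and MERTK lay under the nonspecific level and were not called. PLSCR1, a scramblase family member induced by interferon, fell by 0.58, the flippase subunit TMEM30A by 0.23 and the bridging protein MFGE8, under the nonspecific level, by 0.33. Of their probe sets, 5 of 6, 5 of 6 and 1 of 3 were called lower.

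Of 11 genes of membrane repair and copines, 4 rose and 0 fell (limma, with 5 and 2 at an unadjusted p under 0.05, median -0.04), 3 rose and 6 fell with the spike-in centring, and 4 rose and 2 fell with a common array median. CAPN2, a calcium-activated protease, rose by 1.16 on the log2 scale, with all 5 probe sets called. CPNE2, a calcium-dependent lipid binder, rose by 1.12 and CPNE8 by 0.75, the latter called on 1 of its 2 probe sets. CHMP4B, an ESCRT subunit, rose by 0.36, and stood at 0.11 without a call under that centring. CPNE1 (-0.20) and CHMP4A (-0.18) were not called, but a further probe set of each was called lower, 11739125_x_at (-0.39, adjusted p = 0.0017) and 11722579_a_at (-0.25, adjusted p = 0.0093), both above the nonspecific level. MYOF (0.20) was not called either, and its further probe set 11718168_a_at was called higher (0.31, adjusted p = 0.0269), both under that level.

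**Figure D4:**
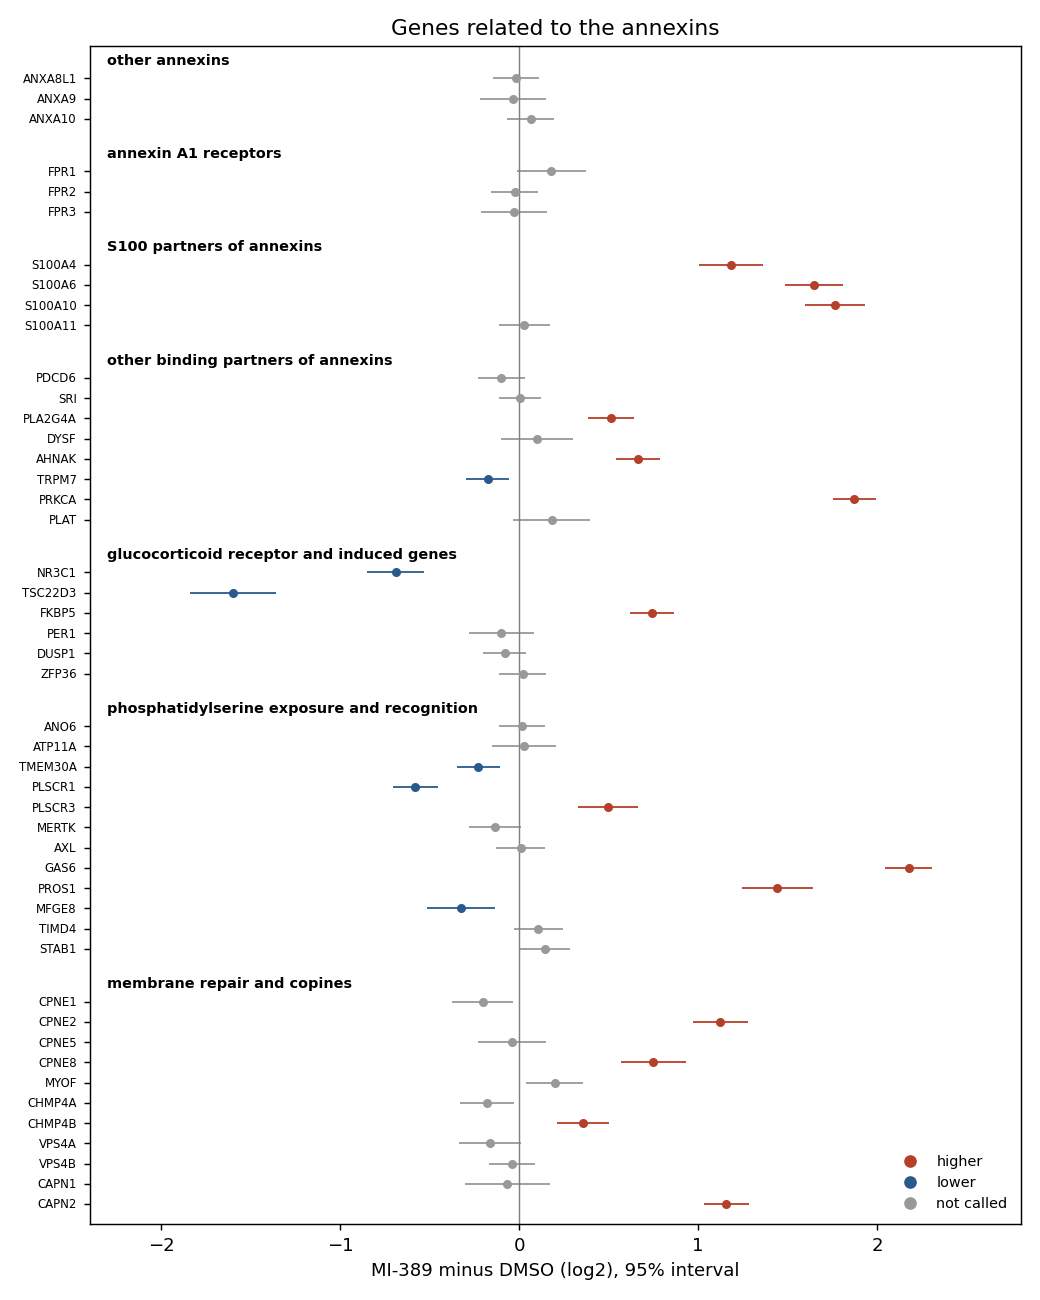
Change of each of the 47 measured genes of the 7 related lists (MI-389 minus DMSO, log2) with 95% intervals from limma, red for genes called higher, blue for lower and grey for not called, in the values as deposited. GAS6 (2.18), PRKCA (1.87) and S100A10 (1.76) lie farthest to the right and TSC22D3 (-1.60) farthest to the left.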

How the data were processed

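The values are log2 expression, deposited by the authors as 1 number for each probe set on each array. RMA and limma appear in the list of tools per the submitters' processing notes, without versions. Other settings and a genome build were not given in the sources used here. Array medians lay between 4.47 and 4.49. At dim probe sets RMA compresses differences, which makes folds too small. No sequencing depth applies, and the number of arrays (3 per group) limits the precision.

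From the 49386 probe sets 93 controls were left out. Of the rest, 45253 had 1 gene in the platform annotation, 1327 had several and 2713 had none, with symbols updated through gene IDs in the RefSeq table of GRCh38.p14. Each of 18239 genes was represented by its probe set with the highest mean. MI-389 minus DMSO was fitted with limma 3.58.1 in R 4.3.3 (lmFit, eBayes, two-sided, no covariates). The fits covered all probe sets, all genes and all within-gene pairs, each adjusted by Benjamini-Hochberg over its whole table at 0.05. They were also run on simulated data with independent noise and few changed features. Those settings are unlike these data, so nothing on the calls here is read from that run. Probe-set changes carry the SE of the probe-set fit, gene changes that of the gene fit. Means are ± SD (n = 3 each).

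The members, lists and tests were chosen with earlier results of these data known. Named genes are the 8 members with all probe sets, the 3 profiles nearest to ANXA1, all genes of lists with at most 4, and up to 3 higher and 3 lower of each other list. PER1, DUSP1, ZFP36, AXL, MERTK, CHMP4B, CPNE1, CHMP4A, MYOF, the ANXA2 copies and the probe sets shared by ANXA8 and ANXA8L1 were named after their values were seen. Alternatives were a common median, a further quantile normalisation, centring on the spike-ins, dim features left out, a replicate block, an intensity trend with robust variance, each array left out, a threshold of 0.01, treat against a fold of 1.2, the mean of all probe sets, and suffixed probe sets last.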

Additional observations from a re-analysis of the deposited data

Results flagged for a closer look

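Control probe sets outside the comparison differed between the groups. The hybridisation spike-ins, transcripts added in known amounts, were higher on the MI-389 arrays by 0.25 (log2, 9 probe sets). Probe sets for 18S ribosomal RNA were higher by 0.70 and those for 28S by 1.06 (3 probe sets each). The fit of the values as deposited does not use these control features. Centring on the spike-ins was run as an alternative, with its values given above. How far the control differences enter the annexin values was not tested.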

How the results depend on the processing

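Over the alternatives run on the 8 genes, 110 of 127 gene values kept their direction and their side of the threshold (for ANXA1, moved by less than the spread between arrays). The other 17 were 13 calls lost, 3 shifts of ANXA1 and 1 sign turned, ANXA4 at -0.10 (not called) with suffixed probe sets last, read there by a probe set under the nonspecific level. ANXA1 stood at 4.45 with the spike-in centring, at 3.93 with the mean of its probe sets and at 0.0042 with suffixed ones last. Counts of annexin genes and probe sets here include ANXA1 as a description. Centring on the spike-ins gave 4 annexin genes and 17 probe sets higher, 7 probe sets lower and 27 related genes lower; 12453 genes were called there, against 6214 as deposited. Treat against a fold of 1.2 left 4 genes and 17 probe sets higher, 0 genes and 0 probe sets lower, 3 pairs differing and 3 related genes lower, with 2457 of all genes called. Without dim features 0 annexin genes and 0 probe sets were lower, since ANXA3 is then not tested. At 0.01 these counts were 0 and 1, with 2182 of all genes called lower. The replicate numbers share no stated batch, and arrays of the same number did not deviate together (r = -0.20, 0.02 and -0.14). With the replicate number as a block 0 annexin genes and 1 probe set were lower, and 5725 of all genes were called; MI-389 replicate 1 correlated best with DMSO replicate 3. With single arrays left out, annexin genes higher numbered 7 to 7 and lower 0 to 1, and probe sets higher 28 to 29 and lower 1 to 1. Pairs differing numbered 6 to 7, and related genes 14 to 16 higher and 5 to 7 lower. Of all genes, 2790 to 3328 were called higher in these fits and 2426 to 2832 lower. Among the alternatives, shares over all probe sets are given here for the spike-in centring alone, and those over all pairs for none. What caused the shifts was not tested, other than where fewer features are tested. Signal over background limits statements on ANXA3 and the 7 probe sets under the nonspecific level, and on the size of the change where only DMSO arrays lay under it (4 probe sets of ANXA1, the brightest on 1 of its 3 DMSO arrays, and 11750040_a_at of ANXA5).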
